A study of Mus musculus with 78 samples.

Results

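The comparison described here set cartilage tissue exposed to interleukin-1beta (IL-1beta) for 24 h directly against the same kind of tissue exposed to tumour necrosis factor alpha (TNF-alpha) for 24 h. Its members were the 6 messenger RNA libraries of those groups, 3 with IL-1beta and 3 with TNF-alpha, out of 78 libraries in the series. The tissue was cartilage engineered in culture from murine induced pluripotent stem cells, and the series sequenced its messenger RNA and its small RNA over several exposure times. IL-1beta was given at 1 ng/mL and TNF-alpha at 20 ng/mL, so a difference between cytokines and a difference between doses cannot be told apart. The 3 libraries of untreated tissue at 24 h served as the common control. The labels name neither the stem cell line nor a strain or allele. Nor do they state if replicate libraries stem from independent cultures, so each p-value is set against a spread between libraries that may be technical.

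IL-1beta and TNF-alpha are the best studied inflammatory cytokines of arthritic joints. IL-1beta binds the receptor encoded by Il1r1 with its partner Il1rap and signals through the adaptor MyD88, whereas TNF-alpha binds the receptors encoded by Tnfrsf1a and Tnfrsf1b and signals through TRADD and TRAF adaptors. Both routes reach the kinases that free the transcription factor NF-kappaB from its inhibitors, and in chondrocytes both are known to raise proteases and lower the synthesis of type II collagen and aggrecan.

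Values are counts scaled to a common library size (CPM) with the factors of the trimmed mean of M values. CPM is not corrected for gene length, so levels were compared between libraries for the same gene and not between genes. A gene was called when its Benjamini-Hochberg adjusted p in edgeR's quasi-likelihood test, run over all 18857 tested genes, was below 0.05. Fold changes are log2, IL-1beta over TNF-alpha, so a positive value is a higher level with IL-1beta, and each error is a standard error with 3 libraries a group. "Rose" and "fell" are used for called genes and say where the level with IL-1beta lay relative to TNF-alpha.

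The 6 libraries held between 21473899 and 30186404 counts. Markers of chondrocytes were abundant: the summed CPM of the 8 chondrocyte markers was 28080 to 31220 with IL-1beta, 45290 to 69850 with TNF-alpha and 69350 to 75250 in untreated tissue. The 14 macrophage and leukocyte markers summed to 45.8 to 52.5 CPM with IL-1beta, 33.1 to 48.3 with TNF-alpha and 23.2 to 34.3 in untreated tissue, and 6 of them passed the filter on low counts. None of 8 pluripotency markers passed it. In bulk tissue, fewer cells of a type and less RNA per cell cannot be told apart. Single libraries stood apart from their own groups in several lists. IL-1beta replicate a held the highest level of the 3 IL-1beta libraries for 30 of 30 tested type I interferon-stimulated genes, with a summed CPM of 705.3 against 283.3 in replicate b, the lowest for 30 of 30, and 399.5 in replicate c. TNF-alpha replicate c was the lowest of its group for 30 of 30 of them, with 448.2 against 668 in replicate a and 737.3 in replicate b. Replicate a was the highest of its group for 18 of 20 MHC class I genes with IL-1beta and for 18 of 20 with TNF-alpha. TNF-alpha replicate b was the highest of the 3 TNF-alpha libraries for 21 of 25 cartilage matrix genes and the lowest for 15 of 19 acute-phase genes. Calls between IL-1beta and TNF-alpha that turn on 1 of these libraries are given with and without it.

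Of the 18857 genes tested at 24 h, 3790 (20.1%) were called: 1756 (9.31%) were higher and 2034 (10.8%) lower with IL-1beta than with TNF-alpha. A difference of at least 2-fold was found for 1075 genes (5.7%): 450 that rose (2.39% of all tested genes) and 625 that fell (3.31%). The median log2 fold change of all tested genes was 0.000712. Leaving out single libraries gave 2943 called genes without TNF-alpha replicate b and 3523 without TNF-alpha replicate a. Including the 1 mRNA column that was left out for its low depth, at 0 h, gave 1865. In 6688 genes (35.5%) the 3 IL-1beta libraries did not overlap the 3 TNF-alpha libraries. The genes with the largest differences included acute-phase proteins and Il6 on the side of IL-1beta, and an adhesion molecule, a lectin and a costimulatory ligand on the side of TNF-alpha.

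**Figure D1:**
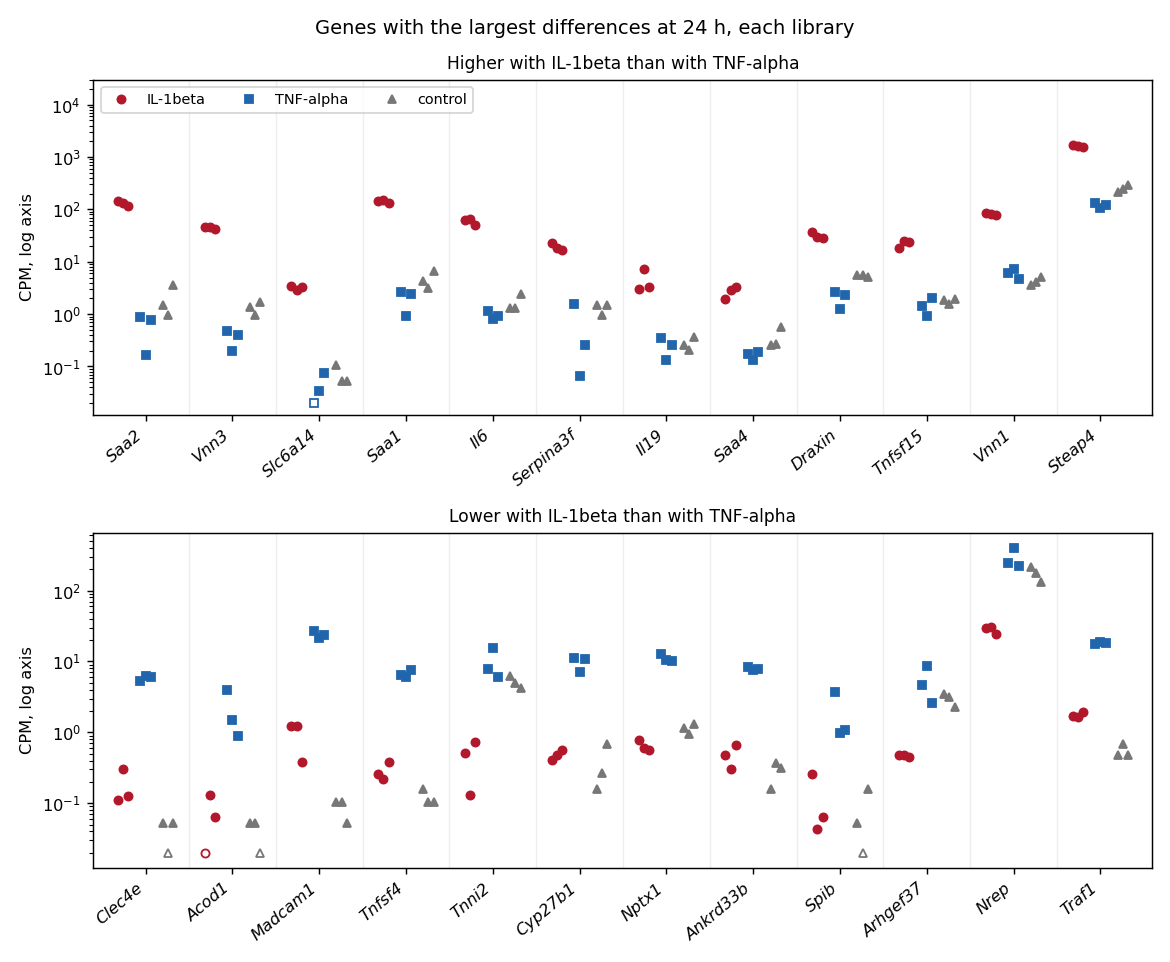
Level of each gene in each 24 h library in CPM on a log axis, for 12 genes that were higher with IL-1beta (upper panel) and 12 that were lower (lower panel). Circles are IL-1beta libraries, squares TNF-alpha libraries and triangles untreated libraries; an open symbol at 0.02 stands for a library with 0 counts. Genes were chosen on the condition that the 3 IL-1beta libraries did not overlap the 3 TNF-alpha libraries. Saa2, for example, had 117.4 CPM or more with IL-1beta and 0.866 CPM or less with TNF-alpha.

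The acute-phase and antimicrobial proteins formed the list with the largest median difference in favour of IL-1beta. These are secreted proteins that the liver releases during infection and that injured tissues also make locally. Of 19 tested members of the list of 20, 15 rose and the other 4 were not called, and the list's median was 3.03. The counts of this list were the same without each library in turn. The summed CPM of the list was 27300 to 32170 with IL-1beta, 6073 to 7796 with TNF-alpha and 6636 to 8612 in untreated tissue, so the TNF-alpha and untreated ranges overlapped while the IL-1beta range lay above both.

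The serum amyloid A genes, which encode apolipoproteins of the acute phase, lie in a cluster on chromosome 7 of GRCm38.p6, with Saa3 at 46711998 to 46719615, Saa1 at 46740497 to 46743181 and Saa2 at 46751833 to 46754313. Saa2 had 142.1, 130.9 and 117.4 CPM with IL-1beta, against 0.866, 0.167 and 0.776 CPM with TNF-alpha, and 1.52, 0.948 and 3.53 CPM in untreated tissue. The IL-1beta libraries lay far above the others, with a log2 fold change of 7.80 ± 0.41 or 223-fold (edgeR adjusted p = 7.64e-17). Saa1, which is nearly identical in sequence, so that reads may be split between them, had 147.1, 152.7 and 132 CPM with IL-1beta and 2.64, 0.901 and 2.40 CPM with TNF-alpha, a 74.5-fold difference. Saa3, the form made outside the liver in mice, was unlike them in that TNF-alpha raised it too: it had 2542, 2210 and 1813 CPM with IL-1beta, 509.3, 203.3 and 463 CPM with TNF-alpha, and 45.3, 35.3 and 75.8 CPM in untreated tissue. Its direct difference was 2.48 ± 0.33 (edgeR adjusted p = 2.68e-07, 5.59-fold).

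Other members with different functions lay on the same side. Lcn2, which encodes lipocalin 2, a protein that withholds iron from bacteria by binding their siderophores, had 4988, 5252 and 5259 CPM with IL-1beta, against 662.8, 421.7 and 816.9 CPM with TNF-alpha and 810.7, 809.4 and 1228 CPM in untreated tissue. Its log2 fold change was 3.03 ± 0.24 (edgeR adjusted p = 3.94e-12), and the highest TNF-alpha library was only just above the lowest untreated one. Chil1, which encodes the chitinase-like protein known as YKL-40 in humans, had 10570, 13440 and 11380 CPM with IL-1beta and 1325, 863 and 1291 CPM with TNF-alpha, a 10.2-fold difference. Hp, which encodes haptoglobin, a scavenger of free haemoglobin, was 8.36-fold higher with IL-1beta. Serpina3f, a protease inhibitor gene in a cluster of close copies, had a log2 fold change of 5.07, which was 6.88 without TNF-alpha replicate a and 4.47 without TNF-alpha replicate b. The members that were not called were S100a8 (0.63, edgeR adjusted p = 0.178), Slpi (-0.20, adjusted p = 0.674), Serpina3n (0.09, adjusted p = 0.62) and Ptx3 (-0.04, adjusted p = 0.969).

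The promoters of Saa3 and Lcn2 are shown because a short motif bound by C/EBP factors, which are known regulators of acute-phase genes in liver, was found in most of the list. The letters searched were TTGCNNAA, on both strands, in windows of 300 bases that run from 250 before to 50 after the gene start in the RefSeq table of GRCm38.p6. It was found in 12 of the 17 acute-phase genes with a window (70.6%), in 3 of 13 genes of the list of IRF1 and interferon-inducible GTPases (23.1%) and in 1 of 19 cartilage matrix genes. A gene counted when any of its windows matched. Of all 32851 single windows, which belong to 27025 genes, 10.8% matched, so the shares of genes and of windows are in unlike units. A longer and looser spelling that was also tried, TTNCNNNAA, matched 36.6% of all single windows. It was found in 14 of 17 acute-phase genes (82.4%), 11 of 13 IRF1 and GTPase genes (84.6%) and 5 of 19 cartilage matrix genes (26.3%). The lead of the acute-phase list over the IRF1 and GTPase list thus depends on the spelling. The patterns shown were picked out of 10 after their counts were seen, and a match to these letters is a description and no evidence of binding. The matches, in capitals, lie 99 bases before the start of Saa3 (chr7:46715627-46715926, minus strand) and 216 bases before that of Lcn2 (chr2:32387690-32387989, minus strand). Neither overlaps a match to another of the patterns. The Saa3 window is set on a start in that table that lies inside the gene range given above, downstream of the range's outer end.
Saa3: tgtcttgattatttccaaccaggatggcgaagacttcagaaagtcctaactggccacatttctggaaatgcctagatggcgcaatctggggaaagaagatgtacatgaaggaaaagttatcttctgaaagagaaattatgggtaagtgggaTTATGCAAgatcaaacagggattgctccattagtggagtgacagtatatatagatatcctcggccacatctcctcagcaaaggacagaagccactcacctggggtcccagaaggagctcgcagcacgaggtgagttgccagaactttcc
Lcn2: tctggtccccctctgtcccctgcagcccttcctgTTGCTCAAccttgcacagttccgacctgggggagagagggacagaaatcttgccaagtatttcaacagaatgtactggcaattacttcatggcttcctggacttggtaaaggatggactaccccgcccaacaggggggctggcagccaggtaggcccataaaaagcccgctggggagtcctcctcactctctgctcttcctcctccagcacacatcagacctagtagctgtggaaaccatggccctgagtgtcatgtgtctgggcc

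The list also holds the vanins, which are pantetheinases that make cysteamine and pantothenate. Vnn3 (chromosome 10, 23851462 to 23869843) had 46.9, 47.1 and 41.6 CPM with IL-1beta, against 0.476, 0.2 and 0.407 CPM with TNF-alpha and 1.36, 0.948 and 1.74 CPM in untreated tissue. That is a log2 fold change of 6.99 ± 0.23 (edgeR adjusted p = 6.99e-22), and its neighbour Vnn1 (23894688 to 23905344) was 13.7-fold higher. Genes outside the list lay on the same side too. Steap4, a metalloreductase of iron and copper, had 1727, 1600 and 1590 CPM with IL-1beta and 133.4, 104.9 and 122.1 CPM with TNF-alpha, a log2 fold change of 3.77 ± 0.13. Draxin, known as an axon guidance protein in the nervous system, was 15.4-fold higher with IL-1beta. Slc6a14, an amino acid transporter, had 266 counts over the 3 IL-1beta libraries against 3 over the 3 TNF-alpha libraries, a depth-scaled ratio of 86.9 with a counting interval of 29.4 to 424.

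Among 10 tested adipocyte markers, 6 rose and the other 4 were not called, with a median of 1.38. Without TNF-alpha replicate a, 7 rose and the median was 2.0. Their summed CPM was 630.3 to 699.4 with IL-1beta, 257.6 to 356 with TNF-alpha and 356.1 to 496.4 in untreated tissue. Gene by gene, the sums do not carry over. Against the shared untreated libraries, 1 marker was called higher with IL-1beta and 0 lower, with a median of -0.21. With TNF-alpha, 7 were called lower and 0 higher, with a median of -1.50. Over all genes, 17.0% were called higher with IL-1beta and 11.9% lower with TNF-alpha. None of the tested markers had 0 counts over the 3 libraries of a group, but Lep had only 2 over the 3 TNF-alpha libraries. The part of this shift in the acute-phase difference was not tested.

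Secreted cytokines differed in both directions. Il6 (chromosome 5, 30013114 to 30019975), which encodes the cytokine that drives acute-phase synthesis in the liver, had 63, 65.2 and 51.1 CPM with IL-1beta, against 1.13, 0.801 and 0.924 CPM with TNF-alpha and 1.31, 1.32 and 2.42 CPM in untreated tissue. All IL-1beta libraries were high, and all TNF-alpha libraries lay just below the untreated ones. The log2 fold change was 5.98 ± 0.24 (edgeR adjusted p = 8.62e-20, 63.3-fold). Against untreated tissue Il6 was higher with IL-1beta by 5.15 on the log2 scale, and its value for TNF-alpha was -0.84 (edgeR adjusted p = 0.108). Csf1, which encodes the growth factor of macrophages, was the reverse: it had 99.1, 78.0 and 75.8 CPM with IL-1beta, 665.2, 625 and 636.8 CPM with TNF-alpha, and 34.7, 31.7 and 32.6 CPM in untreated tissue. Its log2 fold change was -2.93 ± 0.12 (edgeR adjusted p = 8.62e-20), a level 7.62-fold higher with TNF-alpha, although IL-1beta libraries too lay above untreated ones.

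The Il6 promoter is shown because its window (chr5:30012864-30013163, plus strand) held a match both to the C/EBP letters, 128 bases before the start, and to kappaB letters bound by NF-kappaB (GGGA, any base, then TTTCC), 44 bases before it. The kappaB letters were found in 0.411% of all single windows. Of genes with a window, 3 of 9 CXC chemokine genes (33.3%) and 0 of 17 acute-phase genes had them. They overlap by construction with the looser spellings that were also tried (GGG, any 2 bases, TTTCC, and GGG, any 3 bases, TTCC). The first of these was found in 3 of 17 acute-phase genes, 3 of 9 CXC chemokine genes and 1.63% of all single windows. The second was found in 3 of 17, 4 of 9 and 5.56%, so the count of 0 in the acute-phase list depends on the spelling. The capitals mark the matches.
Il6: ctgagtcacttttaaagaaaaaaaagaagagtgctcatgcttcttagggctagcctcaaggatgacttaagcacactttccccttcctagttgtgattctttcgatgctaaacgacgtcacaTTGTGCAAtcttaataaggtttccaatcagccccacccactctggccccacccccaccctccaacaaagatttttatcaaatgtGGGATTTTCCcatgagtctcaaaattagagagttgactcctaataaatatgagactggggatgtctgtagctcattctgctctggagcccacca

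The list of leukocyte growth and differentiation cytokines had 5 of 9 tested members that rose and 2 that fell, with a median of 0.36, but only 2 rose without TNF-alpha replicate b. Csf3, the granulocyte growth factor, had 8.85, 6.32 and 4.01 CPM with IL-1beta and 0.693, 0.267 and 0.629 CPM with TNF-alpha, a log2 fold change of 3.61 ± 0.41. Il19, of the IL-10 family, was 18.1-fold higher with IL-1beta. Il12b, a subunit that is shared by IL-12 and IL-23, had 144 counts over the 3 IL-1beta libraries against 2 over the 3 TNF-alpha libraries, a depth-scaled ratio of 70.5 with a counting interval of 19.2 to 588. Tslp, which activates dendritic cells, fell by 2.51 on the log2 scale.

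The chemokines split by gene rather than by family. Of 12 tested CXC chemokines, 4 rose and 3 fell; the median of -0.96 became 0.37 without TNF-alpha replicate a, so the list had no stable direction, and 5 fell without IL-1beta replicate a or TNF-alpha replicate c. Cxcl1, a neutrophil attractant, had 898.7, 861.7 and 745.4 CPM with IL-1beta against 125.9, 98.0 and 129.7 CPM with TNF-alpha, a 7.09-fold difference. Cxcl5, another neutrophil attractant, was 9.2-fold higher with IL-1beta. Their relatives Cxcl2 and Cxcl3 had the opposite direction and were 3.77-fold and 4.59-fold higher with TNF-alpha. Of 10 tested CC and CX3C chemokines, 1 rose and 3 fell, with a median of -0.01. Ccl5, an attractant of T cells, had 92.6, 47.4 and 51.0 CPM with IL-1beta and 552.6, 316.6 and 385.2 CPM with TNF-alpha, a log2 fold change of -2.71 ± 0.23 (edgeR adjusted p = 9.16e-12). The calls for Ccl2 (-0.64) and Ccl20 (-1.06) were lost without 1 library: Ccl2 had -0.52 (adjusted p = 0.052) without IL-1beta replicate c, and Ccl20 had -0.60 (adjusted p = 0.146) without TNF-alpha replicate a.

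Ligands and receptors of the TNF family were also divided: 10 of 26 tested members of the TNF pathway list rose and 4 fell, with a median of 0.11. Tnfsf15, which encodes the ligand TL1A, had 18.7, 24.9 and 23.4 CPM with IL-1beta and 1.43, 0.935 and 2.03 CPM with TNF-alpha, a 15.3-fold difference. Tnfsf11, which encodes RANKL, the cytokine that drives osteoclast formation, was 4.82-fold higher with IL-1beta, whereas its decoy receptor Tnfrsf11b (osteoprotegerin) was 1.85-fold higher with TNF-alpha. Tnfsf4, the costimulatory OX40 ligand, had 0.258, 0.218 and 0.379 CPM with IL-1beta, 6.54, 6.04 and 7.58 CPM with TNF-alpha, and 0.157, 0.105 and 0.105 CPM in untreated tissue. The TNF-alpha libraries lay far above the other 6, and the log2 fold change was -4.50 ± 0.30 (22.6-fold higher with TNF-alpha). Tnf itself was low, with 0.553, 0.872 and 0.663 CPM with IL-1beta and 1.47, 2.07 and 1.92 CPM with TNF-alpha; its log2 fold change was -1.41 ± 0.31 (edgeR adjusted p = 0.00075).

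**Figure D2:**
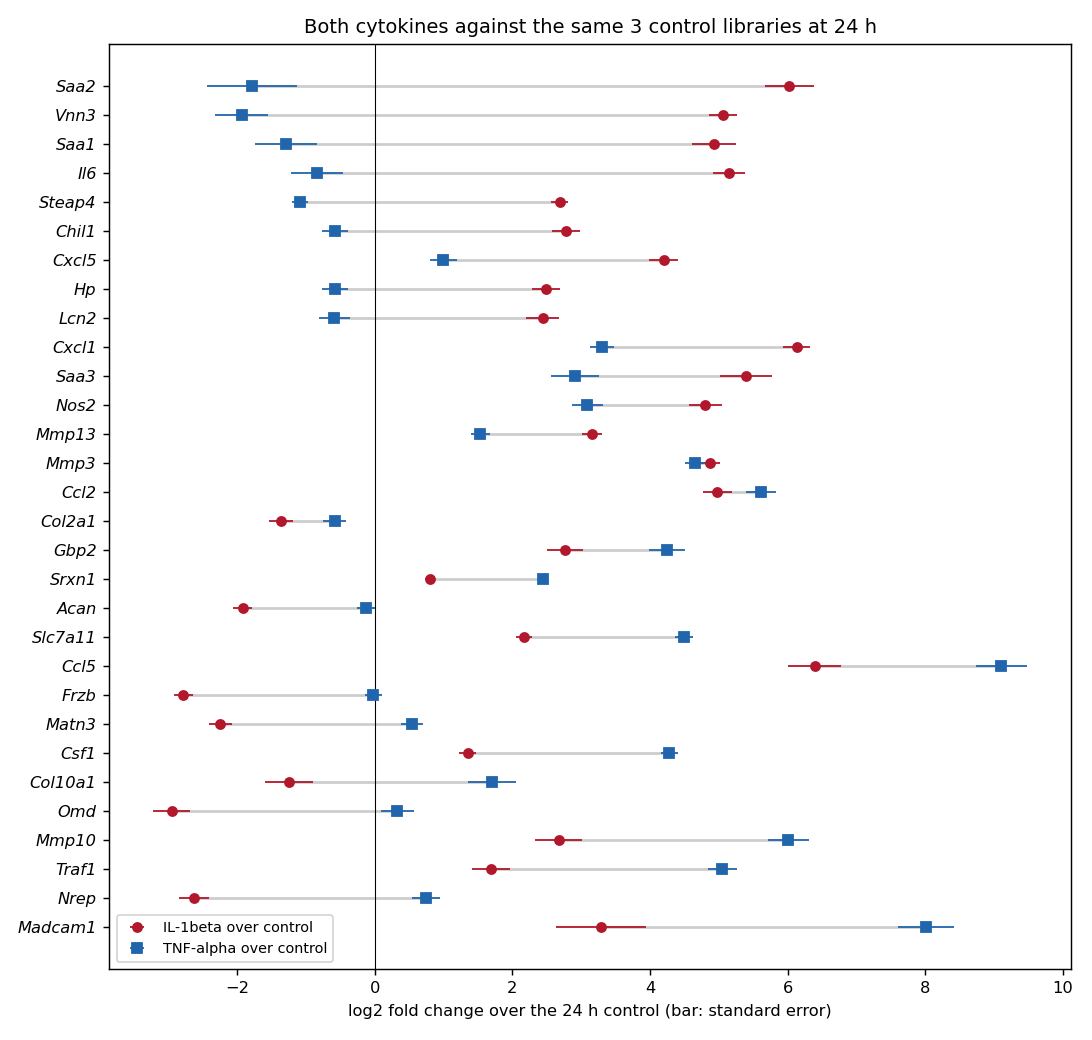
log2 fold change of selected genes over the same 3 untreated 24 h libraries, with IL-1beta (circles) and TNF-alpha (squares); bars are standard errors. Il6 lies at 5.15 with IL-1beta and -0.84 with TNF-alpha, Slc7a11 at 2.17 with IL-1beta and 4.49 with TNF-alpha, and Acan at -1.92 with IL-1beta and -0.12 with TNF-alpha, or -0.35 with TNF-alpha when its replicate b is left out.

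Of the 4 genes named above for the signalling receptors of both cytokines, 3 rose and Tnfrsf1b was not called. Il1r1 had 94.7, 92.4 and 85.9 CPM with IL-1beta, against 62.3, 51 and 53.9 CPM with TNF-alpha and 69, 75.7 and 72.4 CPM in untreated tissue, a log2 fold change of 0.71 ± 0.09 (edgeR adjusted p = 2.13e-07). Its partner Il1rap rose by 0.65 on the log2 scale. Tnfrsf1a rose too, with 134.1, 126.5 and 129.2 CPM with IL-1beta and 91.8, 86.6 and 91.1 CPM with TNF-alpha (0.53 ± 0.06, edgeR adjusted p = 4.46e-08). Tnfrsf1b had 99.2, 98.6 and 91.9 CPM with IL-1beta, 94.5, 80.8 and 94.1 CPM with TNF-alpha and 48.9, 49.3 and 45.1 CPM in untreated tissue (0.11, edgeR adjusted p = 0.417). Both groups of Tnfrsf1b values lay above untreated tissue and their ranges overlapped. The IL-1 receptor antagonist Il1rn was 5.66-fold higher with IL-1beta, and Il1rl1, the receptor of IL-33, was 5.26-fold higher with TNF-alpha.

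Of 19 tested NF-kappaB subunits and inhibitors, 8 rose and 2 fell, with a median of 0.22. Nfkbiz, a nuclear NF-kappaB cofactor that mouse macrophages need for Il6 and Il12b, had 221.6, 219.9 and 210.9 CPM with IL-1beta, 57.7, 48.2 and 59.4 CPM with TNF-alpha, and 75.3, 72.2 and 87.0 CPM in untreated tissue. Its log2 fold change was 1.98 ± 0.09, a 3.95-fold difference, and the TNF-alpha libraries lay below the untreated ones. Bcl3, a related cofactor, rose by 1.5 on the log2 scale. Nfkbie, a cytoplasmic inhibitor, fell by 1.11. Traf1, an adaptor of TNF receptors, had 1.70, 1.66 and 1.92 CPM with IL-1beta and 17.4, 18.7 and 18.5 CPM with TNF-alpha, a log2 fold change of -3.36 ± 0.17. Tnfaip3, which encodes a ubiquitin-editing feedback inhibitor, fell by 0.97.

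The feedback and receptor genes of IL-6 signalling differed in both directions as well. Of 22 tested members of the IL-6 family and SOCS list, 8 rose and 3 fell, with a median of 0.09. Socs3, an inhibitor induced by STAT3, had 144.5, 145.9 and 123.6 CPM with IL-1beta, 40.1, 33.1 and 42.9 CPM with TNF-alpha and 42.6, 42.2 and 48.4 CPM in untreated tissue, a 3.57-fold difference. Osmr, the receptor chain of oncostatin M, rose by 1.15 on the log2 scale, and the shared receptor chain Il6st by 0.71. Lif and Il11, which are ligands of the same receptor family, fell by 1.00 and 1.24.

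Genes of innate sensing were found at both extremes. Of 18 tested pattern recognition and inflammasome genes, 8 rose and 3 fell, with a median of 0.32. Tlr2, the sensor of bacterial lipoproteins, rose by 1.45, and Tlr7, the sensor of single-stranded RNA, by 2.52 on the log2 scale. Clec4e (chromosome 6, 123281789 to 123289871), which encodes the lectin Mincle, had 0.111, 0.305 and 0.126 CPM with IL-1beta and 5.33, 6.28 and 5.95 CPM with TNF-alpha, a log2 fold change of -5.05 ± 0.32 and a level 33.1-fold higher with TNF-alpha. Acod1, which makes itaconate, had 0, 0.131 and 0.0631 CPM with IL-1beta and 3.98, 1.47 and 0.887 CPM with TNF-alpha. Its log2 fold change was -4.95 ± 0.71, and -5.71 without IL-1beta replicate b and -4.15 without TNF-alpha replicate a. Both genes are best known from macrophages, and the macrophage and leukocyte markers gave 1 gene that fell, Csf1r (-0.996), whose call was lost without IL-1beta replicate c (adjusted p = 0.0534) and without TNF-alpha replicate c (adjusted p = 0.0693). The part of such cells in these differences was not tested.

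Madcam1 (chromosome 10, 79664559 to 79668542), an adhesion molecule of gut vessels that captures lymphocytes, had 1.22, 1.22 and 0.379 CPM with IL-1beta, 27.2, 21.6 and 23.4 CPM with TNF-alpha, and 0.105, 0.105 and 0.0526 CPM in untreated tissue. Its log2 fold change was -4.72 ± 0.26 (edgeR adjusted p = 2.69e-15), 26.4-fold higher with TNF-alpha. Vcam1, another adhesion molecule, fell by 0.54, while Icam1 was not called (-0.09, edgeR adjusted p = 0.599). The Madcam1 promoter is shown because the window (chr10:79664309-79664608, plus strand) of this gene, which was far higher with TNF-alpha, held the kappaB letters 70 bases before the start, as that of Il6 did. The match is in capitals.
Madcam1: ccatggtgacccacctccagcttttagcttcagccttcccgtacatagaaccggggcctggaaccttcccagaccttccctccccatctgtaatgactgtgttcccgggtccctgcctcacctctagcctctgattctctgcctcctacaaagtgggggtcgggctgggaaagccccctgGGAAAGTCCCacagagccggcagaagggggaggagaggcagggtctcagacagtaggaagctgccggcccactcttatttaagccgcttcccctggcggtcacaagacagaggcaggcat

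Of 16 tested complement genes, 5 rose and 1 fell, with a median of 0.43. C3, the central component, had 3311, 2554 and 2473 CPM with IL-1beta, 897.7, 513.9 and 735.3 CPM with TNF-alpha and 327.4, 361.5 and 360.6 CPM in untreated tissue, a 3.88-fold difference between the cytokines. Cfb, of the alternative pathway, was not called (-0.32, edgeR adjusted p = 0.314). Nos2, the inducible nitric oxide synthase, had 323.8, 276.5 and 313.1 CPM with IL-1beta, 112.2, 71.0 and 95.8 CPM with TNF-alpha and 10.2, 6.84 and 15.6 CPM in untreated tissue, so it lay above untreated tissue in both groups and was 3.28-fold higher with IL-1beta. Of 19 tested prostaglandin genes, 3 rose and 7 fell, with a median of 0.02. Ptgs2, the inducible cyclooxygenase, was not called (0.30, edgeR adjusted p = 0.165), though it was without TNF-alpha replicate b (0.5, adjusted p = 0.0172). Hpgd, which degrades prostaglandins, fell by 1.05.

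The 3 lists of interferon-inducible genes had medians on the side of TNF-alpha. Of 15 tested members of the list of IRF1 and interferon-inducible GTPases, 2 rose and 4 fell, with a median of -0.45. Without IL-1beta replicate a, 2 rose and 6 fell with a median of -0.79, and without IL-1beta replicate b or TNF-alpha replicate a, 2 rose and 2 fell. Gbp2 (chromosome 3, 142620663 to 142638008), a GTPase of defence against intracellular pathogens, had 57.1, 35 and 33.5 CPM with IL-1beta, 152.4, 103.9 and 94.4 CPM with TNF-alpha and 6.34, 5.79 and 6.26 CPM in untreated tissue. Its log2 fold change was -1.48 ± 0.21 (edgeR adjusted p = 9.45e-07), and -1.77 without IL-1beta replicate a. Irf1, the transcription factor upstream of many of these genes, fell by 1.02, with 21.5, 18.6 and 17.5 CPM with IL-1beta and 49.5, 31.5 and 35.8 CPM with TNF-alpha. The 2 that rose were Gbp6, which was 2.83-fold higher with IL-1beta, and its close copy Gbp10, which had 34 counts over the 3 IL-1beta libraries against 1 over the 3 TNF-alpha libraries, a depth-scaled ratio of 33.3 with a counting interval of 5.59 to 1350.

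Of 30 tested type I interferon-stimulated genes, 1 fell and the other 29 were not called, with a median of -0.38. Without IL-1beta replicate a, 5 fell and the median was -1.01; without TNF-alpha replicate c, 3 fell; and without IL-1beta replicate b, 1 rose and the other 29 were not called, with a median of -0.12. Without IL-1beta replicate c, 1 rose and 1 fell. Without the filter on low counts, 1 of 31 rose and 15 fell. The gene that fell was Parp14 (-1.17), a poly-ADP-ribose polymerase family member, and its call was lost without IL-1beta replicate b (-0.91, adjusted p = 0.0648). Cxcl10, an interferon-induced T cell attractant, had 19.1, 1.27 and 4.13 CPM with IL-1beta and 22.2, 21.3 and 9.32 CPM with TNF-alpha. Replicate a alone reached the TNF-alpha range, and the log2 fold change was -1.09 (edgeR adjusted p = 0.174) with it and -2.63 (adjusted p = 0.00141) without it. Zbp1, a nucleic acid sensor, likewise had -1.34 (adjusted p = 0.0717) with that library and -2.20 (adjusted p = 0.0112) without it, and was also called without TNF-alpha replicate c (-1.64, adjusted p = 0.0363). Mx1, an antiviral GTPase, lay on the other side with 1.71 (adjusted p = 0.0998), and was called higher with IL-1beta without IL-1beta replicate b (2.25, adjusted p = 0.0119) or c (2.18, adjusted p = 0.0329).

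Of 20 tested genes of MHC class I presentation, 1 rose and 9 fell, with a median of -0.36. The immunoproteasome subunit Psmb10 was 2.34-fold higher with TNF-alpha, and H2-K1, a classical class I heavy chain, fell by 0.47 on the log2 scale. Without IL-1beta replicate a, 1 rose and 10 fell. The Gbp2 promoter is shown as an example of the letters GAAA, any 2 bases, GAAA, a core of the element that interferon-regulated factors bind. Of genes with a window, 10 of 13 in the IRF1 and GTPase list (76.9%) and 5 of 17 in the MHC class I list (29.4%) had them. The same letters were found in 3.44% of all single windows. In Gbp2 (chr3:142620413-142620712, plus strand) the match, in capitals, lies 59 bases before the start.
Gbp2: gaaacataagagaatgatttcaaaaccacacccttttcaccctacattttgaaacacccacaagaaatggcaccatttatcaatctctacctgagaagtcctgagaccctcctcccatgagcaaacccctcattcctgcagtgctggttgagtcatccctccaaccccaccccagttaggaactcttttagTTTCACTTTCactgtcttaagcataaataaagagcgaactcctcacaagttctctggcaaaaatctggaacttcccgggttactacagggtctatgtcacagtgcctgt

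**Figure D3:**
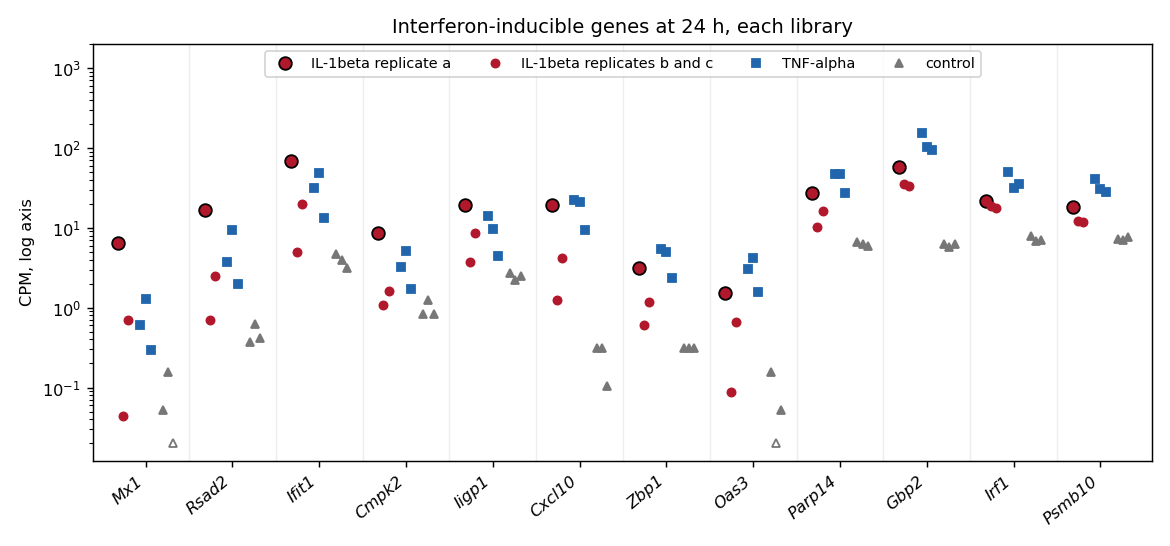
Level of 12 interferon-inducible genes in each 24 h library in CPM on a log axis: IL-1beta circles (replicate a ringed in black), TNF-alpha squares, untreated triangles, and open symbols for libraries with 0 counts. IL-1beta replicate a lies above replicates b and c, as in Cxcl10 with 19.1 against 1.27 and 4.13 CPM.

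Cartilage matrix genes were lower with IL-1beta. Of 25 tested genes, 22 fell and the other 3 were not called, with a median of -0.95. The summed CPM of the list was 36960 to 40510 with IL-1beta, 57970 to 87810 with TNF-alpha and 86300 to 91850 in untreated tissue. Without TNF-alpha replicate b, the library with the highest sum, 19 fell and the median was -0.69. With the left-out 0 h column included, 6 fell.

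Acan (chromosome 7, 79053226 to 79115099), which encodes aggrecan, the proteoglycan that lets cartilage bear load, had 1868, 1714 and 2148 CPM with IL-1beta, 5286, 8597 and 5984 CPM with TNF-alpha and 7356, 7354 and 6895 CPM in untreated tissue. The IL-1beta libraries lay well below the rest, while TNF-alpha libraries lay on both sides of the untreated ones. The log2 fold change was -1.79 ± 0.14 (edgeR adjusted p = 1.22e-12). Over untreated tissue, the log2 fold change of Acan was -1.92 with IL-1beta, and with TNF-alpha it was -0.12 and not called (edgeR adjusted p = 0.559). Without TNF-alpha replicate b, the value with TNF-alpha was called (-0.35, adjusted p = 0.0435). Col2a1 (chromosome 15, 97975602 to 98004724), which encodes type II collagen, had 18400, 19340 and 20900 CPM with IL-1beta, 27430, 41980 and 31470 CPM with TNF-alpha and 46060, 51290 and 53110 CPM in untreated tissue, 3 ranges that did not overlap. Its direct log2 fold change was -0.78 ± 0.17 (edgeR adjusted p = 0.000525).

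Other matrix genes differed by more or by less than these. Matn3, which encodes the adaptor protein matrilin-3, had 56.9, 69.1 and 61.3 CPM with IL-1beta, 349.5, 604.4 and 333.5 CPM with TNF-alpha and 320.8, 270 and 294.6 CPM in untreated tissue, a 6.88-fold higher level with TNF-alpha. Omd, the small proteoglycan osteomodulin, had 19.9, 19.2 and 20.3 CPM with IL-1beta and 208.3, 198.1 and 171 CPM with TNF-alpha, 9.72-fold higher with TNF-alpha. Comp, a cartilage matrix glycoprotein, fell by 0.91. The members that were not called were Prg4, the lubricant of the joint surface (0.40, edgeR adjusted p = 0.102), Matn2 (0.09, adjusted p = 0.426) and Prelp (-0.30, adjusted p = 0.12).

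Of 19 tested chondrocyte regulators, 3 rose and 11 fell, with a median of -0.51. Sox9, the transcription factor that defines chondrocytes, had 58.1, 44 and 57.8 CPM with IL-1beta, 71.7, 85.4 and 70.5 CPM with TNF-alpha and 116.8, 132.8 and 117.3 CPM in untreated tissue, again in 3 ranges that did not overlap (-0.51 ± 0.10, edgeR adjusted p = 0.000165). Frzb, a secreted WNT antagonist of articular cartilage, had 80.4, 75.0 and 56.6 CPM with IL-1beta, 411.1, 604.8 and 416.3 CPM with TNF-alpha and 496.2, 515.5 and 439 CPM in untreated tissue, a level 6.76-fold higher with TNF-alpha. Fgfr3, a receptor that restrains growth cartilage, was 3.42-fold higher with TNF-alpha, and Runx1 was 2.59-fold higher with IL-1beta.

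The 13 tested hypertrophy and mineralization genes gave 5 that rose and 5 that fell. Col10a1 (chromosome 10, 34389981 to 34397085), the collagen of hypertrophic chondrocytes, had 108.2, 110.6 and 102.3 CPM with IL-1beta, 868.3, 1208 and 407.2 CPM with TNF-alpha and 378, 250.9 and 130.3 CPM in untreated tissue. It was 7.74-fold higher with TNF-alpha (-2.95 ± 0.37), with a wide spread between the TNF-alpha libraries and between the untreated ones. Alpl, the phosphatase of mineralization, went the other way and rose by 1.71.

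Among 20 tested fibrous matrix genes, 11 rose and 2 fell, with a median of 0.42. Col3a1, which encodes type III collagen, had 6239, 7015 and 6016 CPM with IL-1beta, 3185, 2095 and 2796 CPM with TNF-alpha and 5928, 6770 and 5897 CPM in untreated tissue. The IL-1beta and untreated ranges overlapped and the TNF-alpha libraries were low (2.39-fold). The small proteoglycans Lum and Dcn rose by 1.04 and 1.13 on the log2 scale, and Sparc, a collagen-binding glycoprotein, fell by 0.63. The call for Col1a1 (0.53) was lost without each of 4 libraries in turn, with adjusted p from 0.0506 (IL-1beta replicate c) through 0.0643 (TNF-alpha replicate b) and 0.0741 (TNF-alpha replicate c) to 0.077 (IL-1beta replicate a). With the 0 h column included, the list had 0 called genes.

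**Figure D4:**
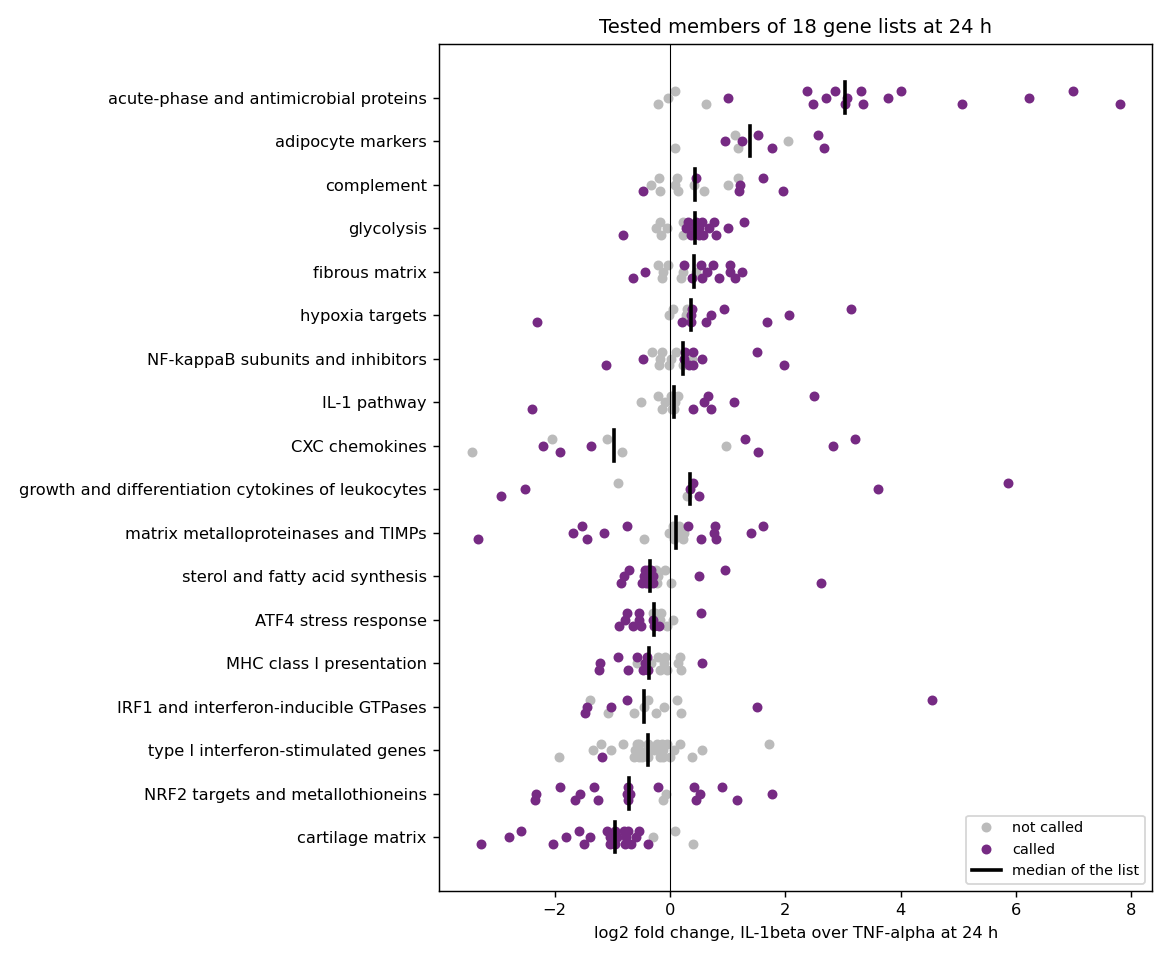
log2 fold change, IL-1beta over TNF-alpha at 24 h, of each tested member of 18 gene lists (purple, called; grey, not called), with the list's median as a black bar. The acute-phase list lies to the right with a median of 3.03 and the cartilage matrix list to the left with a median of -0.95, while most other lists have members on both sides.

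Proteases that degrade cartilage did not share a direction. Of 21 tested matrix metalloproteinases and their inhibitors, 7 rose and 6 fell, with a median of 0.10. Mmp13, the collagenase that cleaves type II collagen, had 3576, 3534 and 3342 CPM with IL-1beta, 1189, 989.5 and 1220 CPM with TNF-alpha and 356.2, 385.9 and 427.6 CPM in untreated tissue (1.62 ± 0.14, edgeR adjusted p = 1.69e-11). Mmp3, stromelysin 1, was high in both groups and not called, with 13960, 14740 and 12190 CPM with IL-1beta, 12120, 9964 and 13040 CPM with TNF-alpha and 430.6, 422.5 and 540.2 CPM in untreated tissue (0.22, edgeR adjusted p = 0.253). Mmp10, a related stromelysin gene nearby on chromosome 9, had 7.15, 7.76 and 8.01 CPM with IL-1beta and 76.3, 64.3 and 91.0 CPM with TNF-alpha, 10.1-fold higher with TNF-alpha. Timp3, the inhibitor bound to matrix, fell by 1.53, and Timp1 rose by 0.77.

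Of 16 tested ADAMTS genes, 4 rose and 4 fell. Adamts5, the main aggrecan-cleaving enzyme of mice, was 1.8-fold higher with IL-1beta. Adamts4, the other main aggrecanase, had a value of 0.58 whose call was lost without IL-1beta replicate a (0.47, adjusted p = 0.107), IL-1beta replicate b (0.55, adjusted p = 0.0563) or TNF-alpha replicate b (0.36, adjusted p = 0.215). In the plasminogen and cathepsin list, 5 of 13 rose and 4 fell: Plau, the urokinase, fell by 0.91, and Serpinb2, its inhibitor, rose by 3.11.

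Most genes of the antioxidant response were higher than in untreated tissue with both cytokines, and most were higher with TNF-alpha than with IL-1beta. In the list of NRF2 targets and metallothioneins, 18 of 20 tested genes were higher with IL-1beta and 16 with TNF-alpha than in untreated tissue, and in the direct comparison 6 rose and 12 fell with a median of -0.71. Both comparisons with untreated tissue share the same 3 untreated libraries, and over all genes 17.0% were called higher with IL-1beta and 13.2% with TNF-alpha. Slc7a11, the cystine importer that feeds glutathione synthesis, had 88.9, 81.9 and 94.7 CPM with IL-1beta, 477.5, 396.4 and 454.5 CPM with TNF-alpha and 19.1, 18.2 and 21.6 CPM in untreated tissue (-2.32 ± 0.11, edgeR adjusted p = 4.79e-18). Srxn1, which repairs peroxiredoxins, had 133.7, 130.5 and 129.6 CPM with IL-1beta and 410.9, 412.3 and 410.4 CPM with TNF-alpha. Gclm, a subunit of the enzyme that starts glutathione synthesis, was 3.73-fold higher with TNF-alpha, and Hmox1, which degrades haem, was 2.36-fold higher. Members that rose included Mt2, a metallothionein, by 1.17, and Slc39a14, a zinc and iron importer, by 1.78.

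Most hypoxia and glycolysis genes were lower than in untreated tissue with both cytokines, and most were higher with IL-1beta than with TNF-alpha. Of 15 tested hypoxia targets, 10 rose and 1 fell in the direct comparison with a median of 0.37, while 14 were lower than in the shared untreated libraries with IL-1beta and 14 with TNF-alpha, against 15.6% and 11.9% of all genes. In either direction, 32.6% of all genes were called with IL-1beta and 25.0% with TNF-alpha. Of 21 tested glycolysis genes, 14 rose and 1 fell with a median of 0.43. Ldha, lactate dehydrogenase A, had 472.6, 519.4 and 426.1 CPM with IL-1beta, 264.8, 292 and 280.2 CPM with TNF-alpha and 619.6, 581.8 and 689.8 CPM in untreated tissue. Its 3 ranges did not overlap. Apln, which encodes the peptide apelin, was 8.85-fold higher with IL-1beta than with TNF-alpha, and Adm, which encodes adrenomedullin, fell by 2.30. Of 25 tested genes of sterol and fatty acid synthesis, 3 rose and 17 fell with a median of -0.34. Cyp7b1, which hydroxylates oxysterols, was an exception and was 6.11-fold higher with IL-1beta. Of 18 tested ATF4 stress genes, 1 rose and 10 fell, with a median of -0.28.

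Of 27 tested BMP and TGF-beta genes, 5 rose and 12 fell, with a median of -0.22. Bmp4, a ligand, rose by 1.31, while Nog, a secreted BMP antagonist, fell by 1.65 and Id4, a target of BMP signalling, fell by 2.22. Of 22 tested WNT genes, 7 rose and 2 fell with a median of 0.11, and 3 rose without TNF-alpha replicate b. The 2 that fell were Lef1, a nuclear effector (-1.44), and the ligand Wnt11 (-1.65). Of 19 tested clock genes, 9 rose and 2 fell with a median of 0.21. DNA replication and mitosis genes gave 1 that rose and 1 that fell of 24, below the 20.1% of all genes called.

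The same contrast at 12 h and 72 h called 1995 genes (10.6%) and 7512 genes (39.8%), in tissues that share no library with the 24 h groups. A test of the change in the difference called 1536 genes (8.15%) between 12 h and 24 h, 788 (4.18%) upwards and 748 (3.97%) downwards. Between 72 h and 24 h it called 2994 (15.9%), 1538 (8.16%) with a higher and 1456 (7.72%) with a lower difference at 24 h. The acute-phase list had 12 genes higher with IL-1beta at 12 h, 15 at 24 h and 17 at 72 h, with medians of 1.36, 3.03 and 3.90, where 4.7% of all genes were higher at 12 h and 19.4% at 72 h. The cartilage matrix list had 4, 22 and 22 genes lower with IL-1beta at 12 h, 24 h and 72 h, and for 16 of its 25 genes the difference at 24 h was called as lower than that at 12 h. Over all genes, 5.88% were lower with IL-1beta at 12 h and 20.4% at 72 h, and the share with a difference lower at 24 h than at 12 h was 3.97%. The 1536 calls were 985 without TNF-alpha 24 h replicate b.

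Acan had 7390 ± 1019 CPM with IL-1beta and 7289 ± 471.9 CPM with TNF-alpha at 12 h (SD, n = 3 each). It had 1910 ± 219.6 CPM with IL-1beta and 6622 ± 1745 CPM with TNF-alpha at 24 h, and 910.2 ± 25.9 CPM with IL-1beta and 2986 ± 378.9 CPM with TNF-alpha at 72 h. The gap was thus absent from the means at 12 h and present at 24 h, and the change was called (-1.81 on the log2 scale, edgeR adjusted p = 4.01e-08). Sox9 had 109.5 ± 13.1 CPM with IL-1beta and 107.4 ± 8.62 CPM with TNF-alpha at 12 h, and its difference changed by -0.53 by 24 h (edgeR adjusted p = 0.013).

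Lcn2 was higher at each later time with IL-1beta and lower with TNF-alpha. With IL-1beta it had 1882 ± 278.4, 5166 ± 154.7 and 9319 ± 120 CPM at 12 h, 24 h and 72 h, and with TNF-alpha it had 792.1 ± 286.1, 633.8 ± 199.2 and 207.9 ± 46.0 CPM. Mmp13 had 1825 ± 248.6, 3484 ± 124.5 and 10220 ± 960.5 CPM with IL-1beta, and 1285 ± 244.1, 1133 ± 124.8 and 1845 ± 481.7 CPM with TNF-alpha. Il6 had its largest mean of the 3 times at 12 h in both groups, with 94.6 ± 28.6, 59.8 ± 7.6 and 36.2 ± 4.42 CPM with IL-1beta and 7.29 ± 2.25, 0.95 ± 0.164 and 0.460 ± 0.120 CPM with TNF-alpha. Slc7a11 differed less at 12 h, with 439.2 ± 38.9 CPM with IL-1beta and 548.2 ± 68.7 CPM with TNF-alpha, than at 72 h, with 30.5 ± 5.13 CPM with IL-1beta and 324.8 ± 13.1 CPM with TNF-alpha. Its list leaned the other way at 12 h: 8 of 20 NRF2 targets and metallothioneins rose and 3 fell, with a median of 0.21. For 12 of the 20 the difference was called as lower at 24 h than at 12 h, and for 1 as higher. Over all genes, 4.7% rose and 5.88% fell at 12 h. The difference was lower at 24 h for 3.97% and higher for 4.18%.

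Among 12 h, 24 h and 72 h, the interferon-stimulated genes differed most at 12 h. The 4 h libraries of the 2 cytokines were not compared. At 12 h, 28 of 30 tested type I genes were lower with IL-1beta with a median of -2.55, and 11 of 15 IRF1 and GTPase genes with a median of -2.12. Of all genes, 5.88% were lower at 12 h, and 4.18% had a difference called as higher at 24 h than at 12 h. For 13 of the 30 type I genes the difference was called as higher at 24 h than at 12 h, but this was so for 1 gene without IL-1beta 24 h replicate a, for 4 without TNF-alpha 12 h replicate a, for 5 without IL-1beta 12 h replicate a or c or TNF-alpha 24 h replicate c, and for 7 without IL-1beta 12 h replicate b. Mx1 had a change of 6.65 with IL-1beta replicate a and 4.10 (adjusted p = 0.0588) without it. Of 15 tested hypoxia targets, 2, 10 and 15 were higher with IL-1beta at 12 h, 24 h and 72 h. Those lower numbered 1, 1 and 0. Of 21 tested glycolysis genes, 3, 14 and 18 were higher and 2, 1 and 1 lower. Of 16 tested complement genes, 2, 5 and 10 were higher and 3, 1 and 2 lower. Over all genes, 4.7%, 9.31% and 19.4% were higher at these times, and 5.88%, 10.8% and 20.4% lower.

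**Figure D5:**
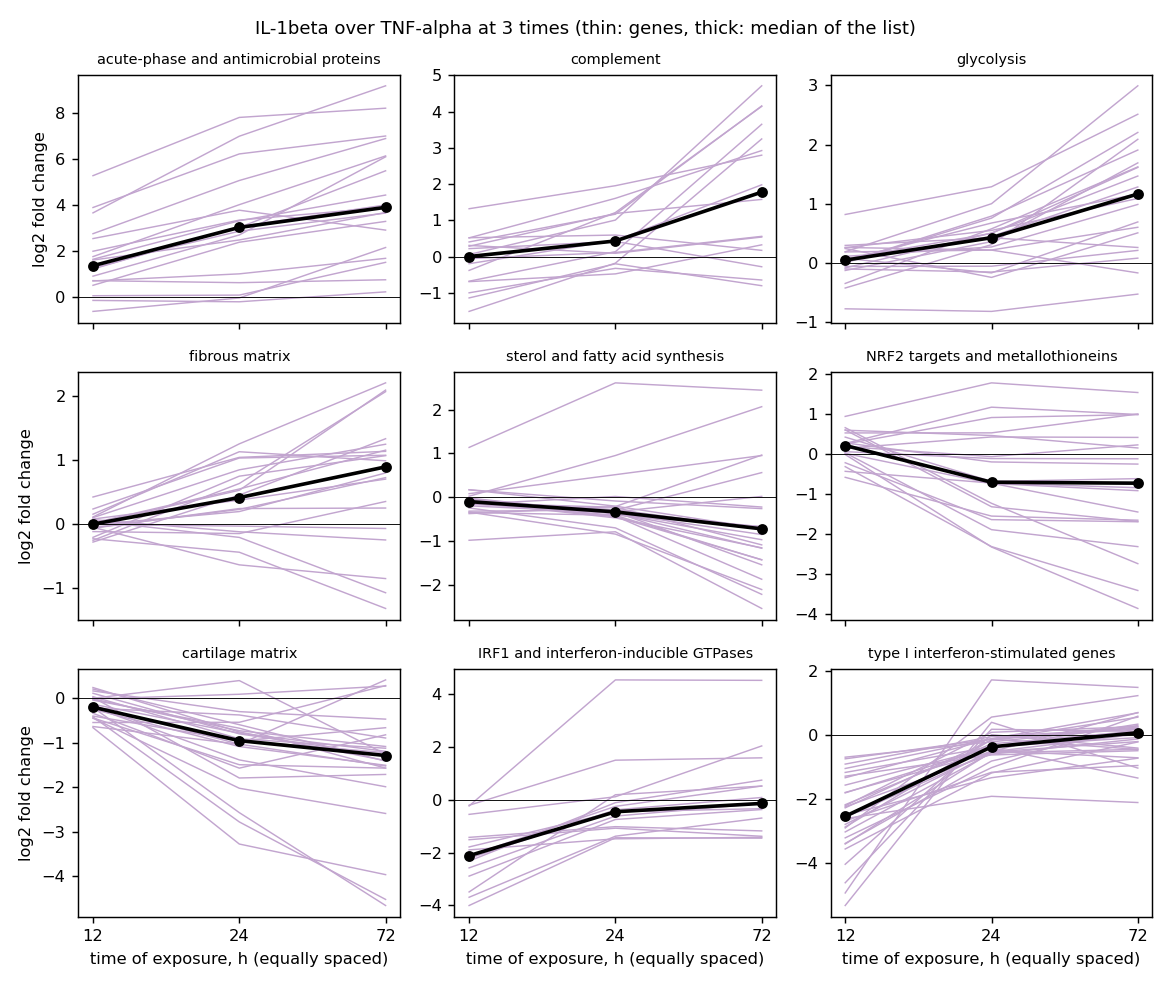
log2 fold change, IL-1beta over TNF-alpha, at 12 h, 24 h and 72 h (equally spaced on the axis) for the tested genes of 9 lists (thin lines) and the list's median (thick line). The acute-phase median is 1.36, 3.03 and 3.90, the type I interferon-stimulated genes start at -2.55 at 12 h, and the cartilage matrix median is -0.20 at 12 h and -0.95 at 24 h.

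Small RNA libraries of the same design showed few differences at 24 h. Of 588 miRNAs tested, 8 (1.36%) were called, 5 (0.85%) higher and 3 (0.51%) lower with IL-1beta than with TNF-alpha, in libraries of 4653364 to 14751773 counts. Mature sequences from RefSeq are shown for the 6 of these that matched, to compare their seeds (bases 2 to 8, in capitals): the 6 seeds all differ.
mmu-miR-210-5p: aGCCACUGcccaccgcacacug
mmu-miR-5106: aGGUCUGUagcucaguuggcaga
mmu-miR-802-5p: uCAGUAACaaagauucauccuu
mmu-miR-148a-5p: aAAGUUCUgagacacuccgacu
mmu-miR-181a-1-3p: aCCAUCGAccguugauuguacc
mmu-miR-341-5p: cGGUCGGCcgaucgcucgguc

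miR-210-5p comes from a hairpin known to be induced in hypoxia. It had 159.3, 177.6 and 195.9 CPM with IL-1beta, 104.8, 78.5 and 66.3 CPM with TNF-alpha and 192.8, 176.8 and 139.9 CPM in untreated tissue (1.09 ± 0.20, edgeR adjusted p = 0.00232), so the TNF-alpha libraries were the low ones. It was called in each of the 12 fits tried. miR-147-3p had 4.87, 8.67 and 6.74 CPM with IL-1beta, 14.1, 15.1 and 16.1 CPM with TNF-alpha and 5.45, 4.64 and 5.74 CPM in untreated tissue (-1.20 ± 0.23, edgeR adjusted p = 0.00399), and was called in 11 of 12 fits. Its host gene AA467197 fell with it in the messenger RNA, by 1.75 ± 0.18 on the log2 scale (edgeR adjusted p = 1.19e-09). miR-341-5p (-0.88, edgeR adjusted p = 0.0122), called in 7 of 12 fits, lies in the imprinted locus of Meg3, Rian and Mirg on chromosome 12, and those non-coding RNAs fell by 1.54, 1.40 and 1.5. Wwp2, the host gene of miR-140, also fell (-0.58, edgeR adjusted p = 3.32e-06), but no miR-140 was among the called miRNAs. The host transcripts Mir155hg and Mir22hg were not called (edgeR adjusted p = 0.766 and 0.685). miR-148a-5p had 1232, 900.8 and 1104 CPM with IL-1beta and 623.9, 622.7 and 629.1 CPM with TNF-alpha, but was called in 6 of 12 fits. miR-222-5p was lower with IL-1beta, with 25.7, 34.1 and 32.2 CPM, against 48.1, 45.1 and 45.3 CPM with TNF-alpha, and was called in 7 of 12 fits. The count of called miRNAs was 1 without IL-1beta replicate a, the lowest over the fits tried.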

How the data were processed

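Messenger RNA and small RNA were sequenced from engineered cartilage. Per the labels' protocols, messenger RNA libraries were depleted of ribosomal RNA. Tools in the submitters' processing notes are featureCounts, STAR, cutadapt and Trimmomatic, and the build is mm10; versions, strand setting and annotation were not given in the sources used here. Deposited by the authors were raw counts per gene or miRNA and library. The lines at the end of the deposited messenger RNA table that name no gene are too short to reach its last 2 columns (IL-1beta at 72 h), whose named lines hold counts like the other columns. Lines without a gene name (0.00184% of counts) were left out, and 1 control column at 0 h was left out because it held 220180 counts.

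Counts were tested with edgeR 4.0.16 (quasi-likelihood test, TMM factors, filterByExpr on group) in R 4.3.3, with limma 3.58.1 behind it. A single fit held 38 messenger RNA libraries in 13 groups, and 1 fit of 39 libraries held the small RNA. Of 52459 named genes, 18857 passed the filter, and Benjamini-Hochberg adjustment ran over all of them. The standard error of a fold change was taken from its F statistic. The contrast, IL-1beta minus TNF-alpha, was fitted at 12 h, 24 h and 72 h together with its change between times. Replicates were compared by chi-square and none was a copy of another. Intervals for ratios of low counts are exact at 95% and cover counting error only, since reads are not independent molecules. On data simulated for the 24 h contrast (17809 genes), 87.5% of genes with a log2 change of -1, 90% of those with 1, 37.5% of those with -0.5 and 54.8% of those with 0.5 were recovered. In the same simulation, 15 genes that had been given no change were called. It gave every gene the same spread and changed far fewer genes than were called in the data.

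The members and the gene lists were chosen with earlier results of these data known. Named genes were the 12 called genes of largest change in each direction with a mean of at least 1 CPM and groups that did not overlap, the 8 with the largest CPM difference, the 4 list members of smallest p, a fixed set of receptor, inflammation and cartilage genes, and the 5 of largest change between times. Other list members were picked for the text after their values were seen. Alternatives were DESeq2 1.42.0, other scalings, no low-count filter, other sets of libraries, a replicate block and leaving out each library. Sequences came from RefSeq (GRCm38.p6) by symbol, with Python 3.11.15 and pandas 2.3.3; figures were drawn with matplotlib 3.10.9.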

Additional observations from a re-analysis of the deposited data

Results flagged for a closer look

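The difference between IL-1beta and TNF-alpha was tested for a change between times, and the named genes for which that change was called are given here. Between 12 h and 24 h it changed for 1536 genes. On the log2 scale, the difference at 24 h minus that at 12 h was 6.65 for Mx1, 5.72 for Rsad2, 4.79 for Cmpk2, 4.05 for Ifit1, 3.69 for Iigp1 and 3.67 for Cxcl10, all interferon-inducible. Without IL-1beta 24 h replicate a, the library that was high in these genes, Mx1 had 4.10 (edgeR adjusted p = 0.0588). The calls for Rsad2 (3.73), Cmpk2 (3.34) and Ifit1 (2.76) were lost without it, while Iigp1 kept its call (2.95). For Cxcl10 the change without that library was not tabulated. Its direct difference at 24 h depended on it, with -1.09 when it was included and -2.63 when it was left out. Without TNF-alpha 12 h replicate a, Cmpk2 had 3.19 (adjusted p = 0.0876), Rsad2 4.2 and Ifit1 3.75 (adjusted p = 0.053). The Ifit1 call was also lost without IL-1beta 12 h replicate a or c or TNF-alpha 24 h replicate c (adjusted p = 0.055, 0.0661 and 0.0525). The change was also positive for Il6 (2.29) and Mmp13 (1.11). It was negative for Col10a1 (-3.66), the muscle troponin Tnni2 (-3.64), the tight junction gene Cldn11 (-3.14), the somatostatin receptor Sstr2 (-2.90), the small proteoglycan Aspn (-2.80), Acan (-1.81) and Sox9 (-0.53).

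Between 72 h and 24 h the difference changed for 2994 genes. The difference at 24 h minus that at 72 h was 4.11 for Ackr2, a decoy receptor of chemokines, 3.78 for Mmp12, 3.40 for Cck, 3.15 for Cd300lb, 3.11 for Il19 and 1.63 for Ptgs2. The Il19 call was lost without TNF-alpha 72 h replicate a (2.30, edgeR adjusted p = 0.052). It was -4.84 for Car9, a hypoxia-induced carbonic anhydrase, -4.75 for Adipoq, -4.57 for Barx2, -4.52 for Wfdc21 and -4.19 for Olfm4. Adipoq had -6.55 without TNF-alpha 72 h replicate a and -3.97 without replicate b, and Olfm4 had -5.25 without TNF-alpha 72 h replicate b. Among receptors and marks, it was -0.60 for Il1r1, 0.58 for Il1rap, 0.47 for Tnfrsf1b and -0.85 for Mmp13. Mmp12 illustrates the size: its mean was 21.4 CPM with IL-1beta and 19.2 CPM with TNF-alpha at 24 h, and 8.19 CPM with IL-1beta and 102.7 CPM with TNF-alpha at 72 h.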

How the results depend on the processing

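The 3790 genes called at 24 h numbered 3760 with DESeq2, 3759 with median-of-ratios factors, 3674 with library totals and 2943 to 3523 when each library was left out. Requiring at least 2-fold left 1075, and including the shallow 0 h column left 1865; with that column the changes between times fell to 385 genes (12 h) and 922 genes (72 h). The change from 12 h numbered 930 genes when fitted on the libraries compared alone, and 985 to 1581 when each library was left out. With library totals, the change from 72 h split as 2244 higher and 1007 lower genes (69.0% higher, against 51.4%). The 8 called miRNAs numbered 3 with library totals and 1 to 8 when each library was left out. Same-letter replicates did not deviate together throughout, with correlations of 0.23 for a, -0.104 for b and -0.054 for c. Pairs of unlike letters had -0.237 to 0.27, so the letters were not taken as pairs. A replicate block gave 3735 genes at 24 h, 1476 and 2938 for the changes from 12 h and 72 h, and 9 miRNAs. Of the 211 named genes at 24 h, none that was called in the main fit changed sign under any alternative. Changes of sign among uncalled named genes were not counted. When a library was left out, 17 of 1266 values were no longer called. With the 0 h column included, 35 of 210 named genes were no longer called. With that column, 6 cartilage matrix genes fell (22 without it), 0 fibrous matrix genes rose (11 without it) and 4 glycolysis genes rose (14 without it). Small changes were often missed in simulated data: for miRNAs, 1 of 10 simulated log2 changes of 0.5 (10%) was recovered, and 1 of 10 of -0.5. The part of depth in this was not tested.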
